A study of Homo sapiens with 2 samples.

Results

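The genes described here are the clustered replication-dependent histone genes, the genes that supply most histone protein while DNA is being copied. They were chosen by name, as protein-coding genes of the HIST1, HIST2 and HIST3 clusters with symbols H2AC, H2BC, H3C or H4C plus digits, or H1-1 to H1-5. RefSeq lists 67 such genes, and 32 of them could be matched to the 31845 genes of the deposited table, 31 by current symbol and 1, H2AC18, by its older name. The other 35 are not analysed here. Matching was uneven, with 5 of 5 H1 genes, 9 of 17 H2A, 10 of 18 H2B, 5 of 13 H3 and 3 of 14 H4 genes, and with 22 of 54 genes of HIST1, 8 of 11 of HIST2 and 2 of 2 of HIST3. Apart from those of H1 and HIST3, the sums below therefore cover part of each family.

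The study holds 2 RNA sequencing libraries of Capan-1, a cell line grown from a pancreatic adenocarcinoma that carries mutant BRCA2. The parental library is the control, and the resistant library comes from cells selected, per the labels, with olaparib (a PARP inhibitor) raised in steps between 15 nM and 128 uM. Both were made strand-specifically from total RNA of cells grown in the same serum-containing medium. The sources used here do not say whether the resistant line is a clone, whether drug was present at harvest, or whether RNA with a poly(A) tail was selected. The columns headed RCA were taken as resistant because they were the pair left once the parental name was matched, and every direction rests on that.

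The libraries held 34572931 parental and 34507480 resistant counts. With no replicate there is no test and no p-value, and each difference describes these 2 libraries. Intervals in the text are exact 95% Clopper-Pearson intervals of the ratio and cover counting error only. In the duct and epithelial marker list, 9 of 10 genes were matched and all 9 reached 50 counts, including KRT19, which had 51896 resistant and 40864 parental counts. After scaling, 6 of the 9 were higher in the resistant library and 3 lower. Of the mammary markers, which the labels' cell type of breast cancer would call for, 2 of the 5 matched reached 50 counts. Both were lower in the resistant library, 1 of them past 2-fold, and the 5 matched summed to 599 resistant and 2017 parental counts. The oestrogen receptor gene ESR1, below that minimum, had 18 resistant and 8 parental counts. Among fibroblast, leukocyte and endothelial markers 2 of the 9 matched reached 50 counts.

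Each nucleosome wraps DNA around pairs of the core histones H2A, H2B, H3 and H4, and linker histone H1 binds where the DNA enters and leaves. The clustered genes have no introns in their classical form and are switched on in S phase by NPAT, a substrate of cyclin E-CDK2. Their messenger RNAs usually end not in a poly(A) tail but in a short stem-loop bound by SLBP, which is formed by a cut that U7 RNA guides. Some of the genes are also known to be made as tailed mRNAs, through poly(A) sites downstream of the stem-loop, in cells outside S phase.

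The stem-loop is the sequence that sets the family apart, so it is shown for members whose ratios differed. In GENCODE release 29 transcripts, 19 of the 32 genes have annotated bases after the stop codon, and 16 of these 19 hold the stem-loop motif there, read on the transcript strand. The motif searched was GG, 2 free bases, CTTTT, 1 free base, AG, 2 free bases and CC, 16 bases in all. Anywhere in a coding transcript, 52 of 19702 genes hold it (0.264%). The other 13 members are annotated with no base after the stop codon, so nothing can be read from them. Below, the 16 bases of the motif are in capitals with 5 bases on each side, DNA letters, 5′ to 3′ on the transcript strand.
H2AC25: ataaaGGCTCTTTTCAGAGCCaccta
H3C14: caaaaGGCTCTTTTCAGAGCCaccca
H4C8: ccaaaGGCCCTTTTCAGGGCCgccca
H2AC11: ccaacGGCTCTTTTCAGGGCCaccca
H2BC21: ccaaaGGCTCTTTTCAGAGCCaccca
H2AC6: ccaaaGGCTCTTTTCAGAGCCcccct
H2BC4: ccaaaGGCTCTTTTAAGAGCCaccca
H2BC5: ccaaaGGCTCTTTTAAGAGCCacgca
Of the 16 members with the motif, 11 carry the form of H2AC25, 2 that of H4C8 (also H4C11), 2 that of H2BC4 and H2BC5, and 1 that of H2AC11. The stem-loop of H2AC6, whose counts were lower in the resistant library, has the same 16 bases as that of H2AC25, whose counts were higher. It starts at base 44 after the stop codon in H2AC6 and at base 41 in H2AC25.

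The clustered histone genes together had 221388 resistant and 202980 parental counts, which is 0.642% and 0.587% of each total. After scaling by TMM factors, which take most genes as equal between the libraries, the ratio of the sums, resistant over parental, was 1.098 (counting interval 1.091 to 1.105). As background, the ratio of the sums was 1.050 over all protein-coding genes and 1.005 over all genes of the table. Over the 20 members whose protein no other gene of the clusters shares, it was 1.018 (interval 1.010 to 1.025), and 12 of the 17 at 50 counts or more had ratios above 1. These members include no H3 or H4 gene but keep H2BC12, H2AC6 and H1-2, which have the lowest ratios at that minimum. The value of 1.018 thus covers H1, H2A and H2B genes only. All ratios below are given as resistant over parental, and counts as resistant against parental. In bulk RNA, fewer cells of a kind, such as cells in S phase, and less RNA per cell cannot be told apart. Of the 32 genes, 29 reached 50 counts in the higher library, and their median log2 ratio was 0.33, beside 0.06 over all 15102 genes at that minimum. Without the members that share a protein with another member, the median was 0.20 over 19 genes. This set, too, holds no H3 or H4 gene, and it keeps every gene of the poly(A) list described below. At 2-fold, 1 of the 29 genes was higher and 0 were lower, while over all genes 6.00% were higher and 8.95% lower. The differences were therefore mostly below 2-fold. By the counting interval, 23 of the 29 (79.3%) lay above equal levels and 5 below, beside 43.7% and 41.2% of all genes. Histone genes are highly counted, so the 5686 genes with at least 1000 counts in the higher library are a closer background. Their median log2 ratio was 0.17, beside 0.30 for the 27 members at that depth. Among these genes, 3.90% were 2-fold higher and 5.33% lower, 57.9% had ratios above 1 and 42.1% below, and 55.8% had intervals above equal levels and 39.4% below. Of the 27 members at that depth, 1 was 2-fold higher and 0 lower, 21 had ratios above 1 and 6 below, and 21 had intervals above and 5 below.

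**Figure D1:**
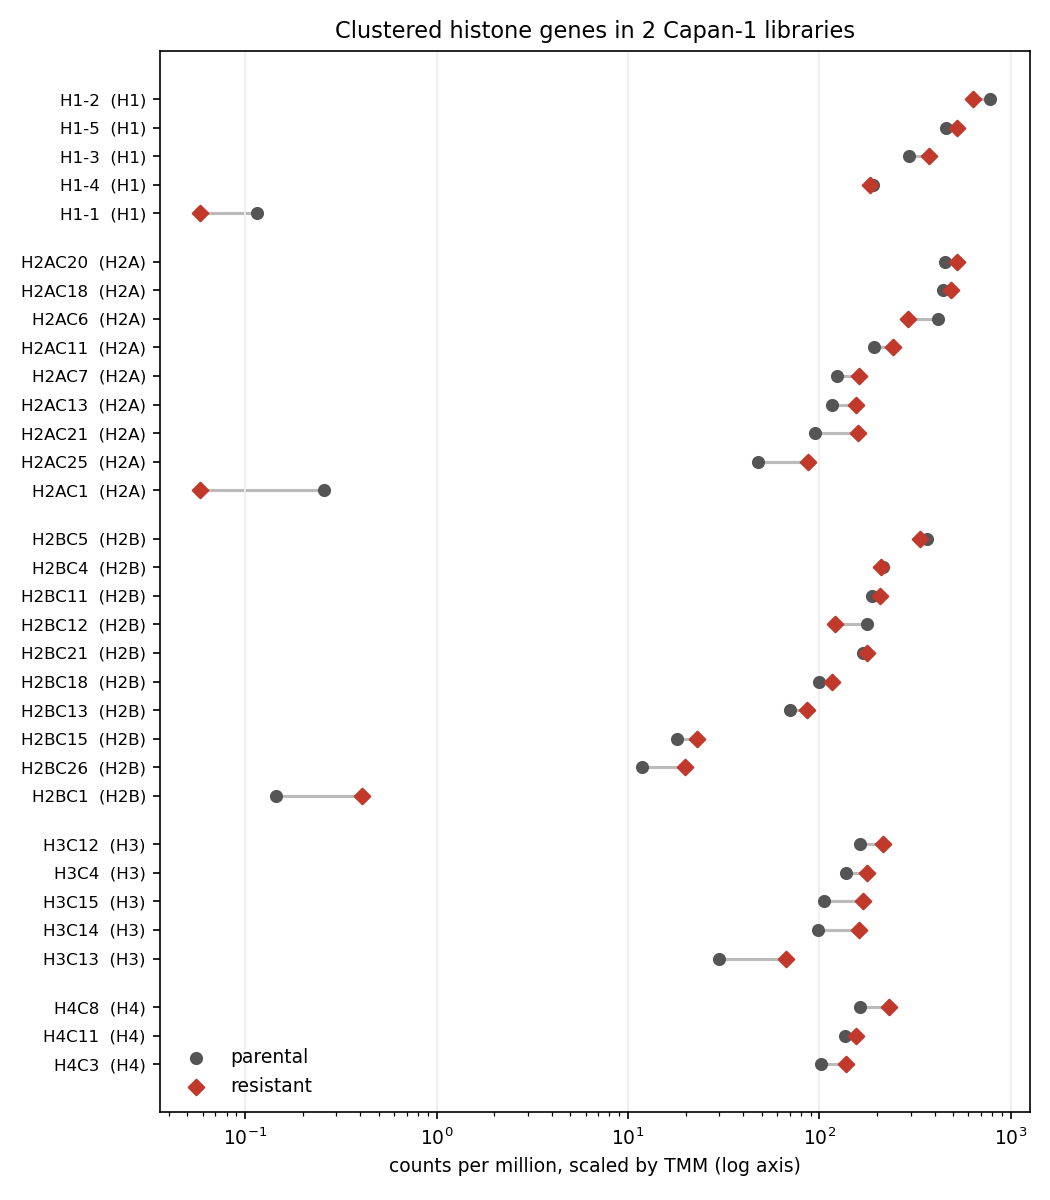
CPM values scaled by TMM factors (x axis, logarithmic) for each of the 32 matched histone genes (y axis, by histone type), with the parental library as grey circles and the resistant library as red diamonds. Most red diamonds lie to the right of the grey circles by a small step, H1-2, H2AC6 and H2BC12 lie most clearly to the left, and H1-1, H2AC1 and H2BC1 stand apart near the bottom of the scale.

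Ratios were compared between 6 members known to be made also as tailed mRNA, listed from textbook knowledge with earlier results of these data known, and the rest. The 6 are H2BC5, H2BC12, H2AC6, H2BC4, H1-2 and H2BC21. Of these 6, 5 had ratios below 1, beside 48.8% of all genes and 42.1% of those at 1000 counts or more. Their median log2 ratio was -0.21. Of the other 23 members at the count minimum, 22 had ratios above 1, beside 51.2% of all genes, and their median was 0.37. At 1000 counts or more, 20 of 21 members outside the list were above 1, beside 57.9% of all genes. The sum of the 6 was lower in the resistant library, with 60811 against 73600 counts, a ratio of 0.832 (interval 0.823 to 0.841). The sum of the members outside the list was higher, with 160577 against 129380 counts, a ratio of 1.249 (interval 1.240 to 1.259).

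The 6 genes had ratios from 0.681 to 1.04 and the other 23 from 0.959 to 2.25, so the sets overlapped only where H1-4, the 1 member outside the list below 1, sat under H2BC4 and H2BC21. Under upper quartile scaling H1-4 and H2BC4 came out above 1, with the deposited FPKM values H2BC4 did, and with the median of all genes at the count minimum set to equal levels H2BC21 came out below 1.

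H2BC12 (HIST1H2BK), an H2B gene of HIST1, had 4175 against 6172 counts. Its ratio of 0.681 (interval 0.655 to 0.708) was the lowest of the 29, a 1.47-fold lower level. H2AC6 (HIST1H2AC), an H2A gene of HIST1, had 9976 against 14362 counts and a ratio of 0.699 (interval 0.682 to 0.717). These 2 genes, 1 of H2A and 1 of H2B, stood well below the rest.
H1-2, a linker histone gene with the most counts of all members, had 21758 against 27052 counts and a ratio of 0.810 (interval 0.795 to 0.824). H2BC5 had 11599 against 12645 counts and a ratio of 0.923 (interval 0.900 to 0.947). H2BC4 had 7221 against 7479 counts, and its ratio of 0.972 (interval 0.941 to 1.004) did not differ from equal levels beyond counting error. H2BC21, the list's 1 member from HIST2, had 6082 against 5890 counts and a ratio of 1.04 (interval 1.003 to 1.078). H2BC12, H2AC6 and H1-2 thus carried most of the list's lower sum.

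Annotation covers the list only in part. GENCODE has a transcript running over 100 bases past the stem-loop for 11 members, 3 on the list and 8 outside it. All 8 outside it had ratios above 1, as did 22 of all 23 measured members outside it. Only transcripts that hold the motif are counted. H2BC5, on the list, and H2BC11, outside it, have annotated transcripts without the motif, with 384 and 569 bases after the stop codon. H2BC12 and H1-2 are annotated with no base after the stop codon. H4C8 has an annotated transcript that runs 1655 bases past its stem-loop, and its ratio was 1.42. H2AC6 has one that runs 1128 bases past, and its ratio was 0.699.

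**Figure D2:**
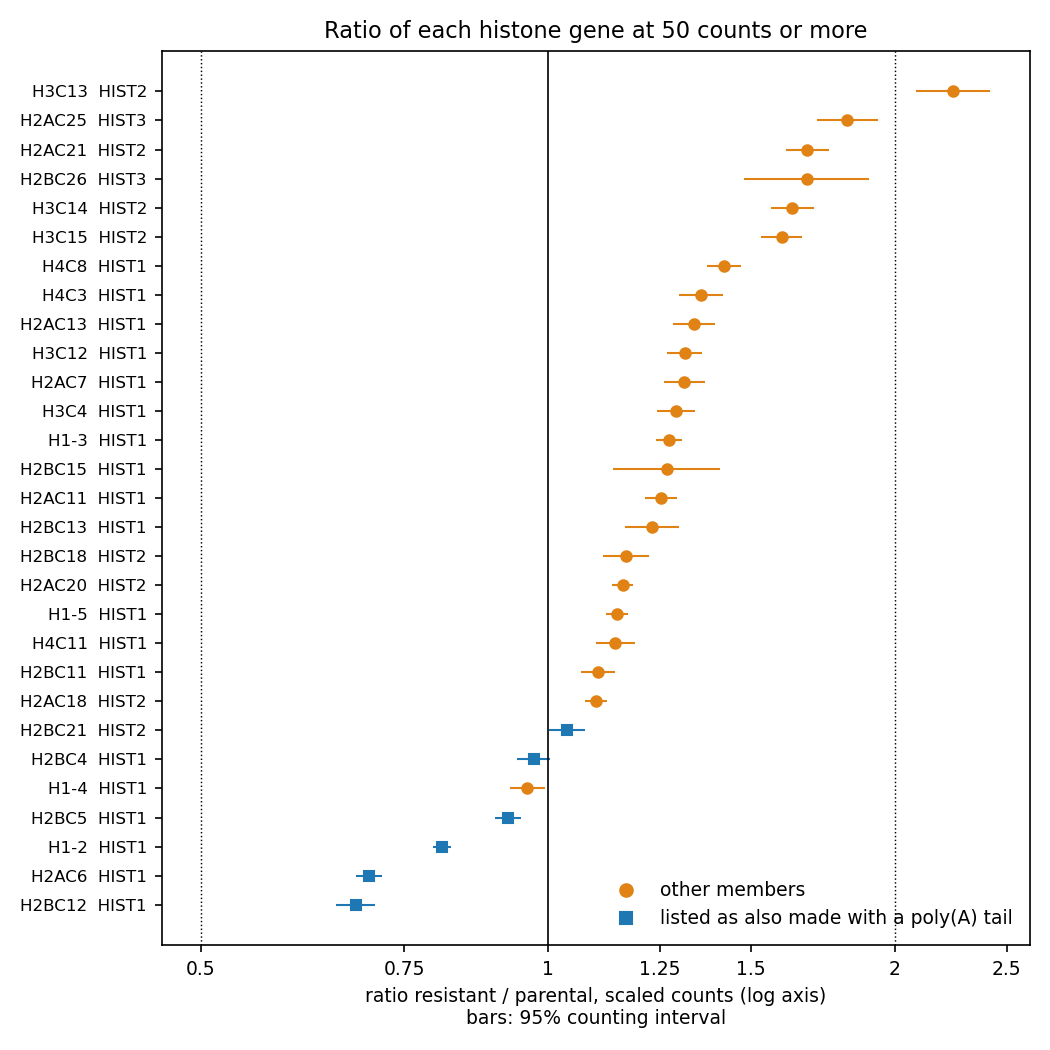
Ratio of resistant over parental scaled counts (x axis, logarithmic) with 95% counting intervals as bars for the 29 histone genes at 50 counts or more, ordered by ratio, with the cluster beside each name (y axis). The 6 blue squares are the members known to be made also with a poly(A) tail, which all lie among the 7 lowest, and the dotted lines mark 2-fold.

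Among the linker histones, which compact the fibre between nucleosomes, the sum over the 5 genes was nearly equal in the 2 libraries, with 59026 resistant and 59701 parental counts (ratio 0.995, interval 0.984 to 1.007). This sum held genes that went in opposite directions. H1-3 had 12886 against 10179 counts and a ratio of 1.27 (interval 1.24 to 1.31). H1-5 had 18053 against 15828 counts and a ratio of 1.15 (interval 1.12 to 1.17), while H1-4 had 6327 against 6638 counts and a ratio of 0.959 (interval 0.927 to 0.993). H1-2 was lower still, as given above. H1-1 had 2 against 4 counts, too few to compare.

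The H2A genes summed to 72452 resistant and 65231 parental counts, a ratio of 1.12 (interval 1.11 to 1.13), and 7 of the 8 at the count minimum had ratios above 1. H2AC20 and H2AC18, a pair of HIST2 genes, held the most H2A counts. H2AC20 had 18045 against 15649 counts and a ratio of 1.16 (interval 1.14 to 1.19), and its FPKM values were 485 and 404, the highest level per length of all members in the resistant library. H2AC18 had 16713 against 15295 counts and a ratio of 1.10 (interval 1.08 to 1.12), and its coding sequence is identical to that of H2AC19, a gene not matched here, so its value may include reads of that copy. The most abundant H2A genes thus showed small ratios.
Larger ratios came from less abundant H2A genes. H2AC25, of HIST3, had 2988 against 1654 counts and a ratio of 1.82 (interval 1.71 to 1.93). H2AC21, of HIST2, had 5507 against 3302 counts and a ratio of 1.68 (interval 1.61 to 1.75), and in GENCODE it overlaps BOLA1 on the opposite strand. Between these and H2AC20 stood 3 HIST1 genes, H2AC13 at 1.34, H2AC7 at 1.31 and H2AC11 at 1.253. H2AC1, a testis histone gene, had 2 against 9 counts.

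The H2B genes showed no common direction, and 4 of the 9 at the count minimum are on the poly(A) list. Their sum was 44664 resistant and 45603 parental counts, a ratio of 0.986 (interval 0.973 to 0.999). The 5 H2B genes outside the list and at the count minimum all had ratios above 1, with a median of 1.23. Among them H2BC26, of HIST3, had 681 against 409 counts and a ratio of 1.68 (interval 1.48 to 1.90). H2BC11 had 7154 against 6518 counts and a ratio of 1.10 (interval 1.07 to 1.14). H2BC18, of HIST2, had 3982 against 3433 counts and a ratio of 1.17 (interval 1.12 to 1.22), and FCGR1A overlaps it on the opposite strand. H2BC15 had a ratio of 1.27 and H2BC13 one of 1.23. In GENCODE, H2BC15 overlaps H2AC16 on its own strand and H2AC15 on the opposite strand, both not matched here, so its counts may hold reads of those genes. H2BC1, a testis histone gene, had 14 against 5 counts.

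All 5 H3 genes were higher in the resistant library, and their sum of 27143 against 18537 counts gave a ratio of 1.47 (interval 1.447 to 1.502). Of these genes 3 are in HIST2, and the HIST1 pair summed to a ratio of 1.304, beside 1.310 for the H4 genes, all of HIST1. H3C13 (HIST2H3D), of HIST2, had 2312 against 1036 counts and was the 1 member past 2-fold, with a ratio of 2.25 (interval 2.09 to 2.42) and FPKM values of 66.1 and 28.4. H3C14 had 5547 against 3428 counts and H3C15 5802 and 3663, with ratios of 1.63 and 1.59. These 2 HIST2 genes have identical coding sequences and near-equal counts, so how their reads were divided is uncertain, and their sum had a ratio of 1.61 (interval 1.56 to 1.66). H3C13 encodes the same protein, and its coding sequence is 97.1% identical to that of H3C15.
The pair of H3 genes from HIST1, which encode another H3 protein, showed smaller ratios. H3C12 had 7392 against 5665 counts and a ratio of 1.31 (interval 1.27 to 1.36). H3C4 had 6090 against 4745 counts and a ratio of 1.29 (interval 1.24 to 1.34). In GENCODE, H3C14 and H3C15 each overlap an H4 gene on the opposite strand, H3C12 overlaps an H2A gene on its own strand, and H3C4 and H2AC7 overlap exons of a further annotated gene on theirs, so their counts may hold reads of those genes.

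The 3 matched H4 genes, which encode 1 and the same protein, were all higher, and their sum of 18103 against 13908 counts gave a ratio of 1.31 (interval 1.28 to 1.34). H4C8 had 7997 against 5668 counts and a ratio of 1.42 (interval 1.37 to 1.47). H4C3 had 4740 against 3517 counts and a ratio of 1.36 (interval 1.30 to 1.42). H4C11 had 5366 against 4723 counts and a ratio of 1.14 (interval 1.10 to 1.19), and shares its coding sequence with H4C12, which was not matched. All 3 are HIST1 genes.

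**Figure D3:**
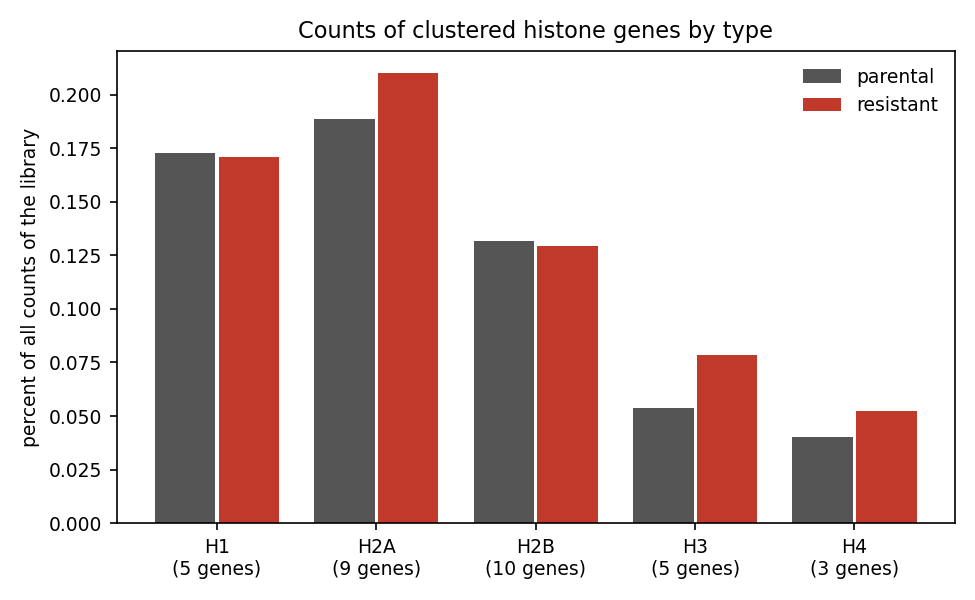
Percent of all counts of each library (y axis, from 0) held by the matched genes of each histone type (x axis, number of genes in brackets), parental in grey and resistant in red, 1 library each. The bars are near equal for H1 and H2B and higher in red for H2A, H3 and H4, and since different shares of each family were matched, bar heights should not be compared between types.

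Levels can be compared between genes only per length, as FPKM, a value the authors computed per length and per library. The length behind it differs widely between members, so the order of levels depends in part on it. In the parental library H2AC11 had 6672 counts and an FPKM value of 33.6, and H2AC13 had 4025 counts and one of 85.4. The 4 highest members were H1-2, H2AC20, H2AC18 and H1-5 in the parental library, at FPKM values of 416, 404, 314 and 226. The same 4 led in the resistant library, but there H1-2, at 349, was behind H2AC20 at 485 and H2AC18 at 358. Among members at the count minimum the lowest level was that of H2BC26, at 10.2 in the parental and 17.7 in the resistant library. H3C13 moved from the rank of 25 to 21 of the 32 members, and H2AC6 from 13 to 20. FPKM values ran 1.04-fold higher in the resistant library for the same count, by the median over genes, so FPKM ratios are larger than those of scaled counts.

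By cluster, the 22 HIST1 genes on chromosome 6 summed to a ratio of 1.037 (interval 1.030 to 1.044), the 8 HIST2 genes on chromosome 1 to 1.246 (interval 1.232 to 1.261) and the 2 HIST3 genes, also on chromosome 1, to 1.79 (interval 1.70 to 1.89). The clusters differ in their share of listed genes, with 5 of the 6 in HIST1. Outside the list, the 14 HIST1 genes had a median log2 ratio of 0.35 and a summed ratio of 1.22, and the 7 HIST2 genes a median of 0.67 and a summed ratio of 1.27. The 7 HIST2 genes ran from 1.10 to 2.25 and the 14 HIST1 genes from 0.959 to 1.42, so the ranges overlapped. The clusters also differ in histone type: 3 of the 7 HIST2 genes are H3, and the HIST2 median is the value of H3C15. H3 genes of HIST2 had a median ratio of 1.63, beside 1.30 for those of HIST1. Within H2A the order was the other way, with a median ratio of 1.16 in HIST2 and unlisted HIST1 genes from 1.253 to 1.34. H2A and H3 genes of HIST2 and HIST3 made up 5 of the 6 highest ratios, the sixth being H2BC26.

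Within HIST1, the groups of genes before and after the butyrophilin gene BTN2A1 were alike once listed genes were set aside. The 6 measured genes before it had a median log2 ratio of 0.38 and the 8 after it one of 0.31. The non-histone genes that lie among the HIST1 histones had a median of 0.31 over 14 genes, close to that of their histone neighbours. Of these 14, 12 had ratios above 1, beside 51.2% of all genes. At 2-fold, 2 of the 14 were higher and 0 lower, beside 6.00% and 8.95% of all genes. SLC17A4, a solute carrier gene, had 101 against 5 counts and a ratio of 20.3 (interval 8.43 to 64.0). BTN2A2, a butyrophilin gene, had 104 against 40 counts and a ratio of 2.62 (interval 1.80 to 3.87). HFE, the haemochromatosis gene, had a ratio of 1.78, while BTN3A1 was at 0.555. Copy number of the region was not measured here.

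Several members are transcribed away from each other with starts close together, an arrangement in which an H2A and an H2B gene share the DNA between them. H2AC25 and H2BC26, 234 bases apart in GENCODE, had ratios of 1.82 and 1.68. H2BC13 and H2AC13, 268 bases apart, had 1.23 and 1.34. H2BC11 and H2AC11, 292 bases apart, had 1.10 and 1.253, and H2BC21 and H2AC20, 323 bases apart, 1.04 and 1.16. H2BC4 and H2AC6, 219 bases apart, had 0.972 and 0.699. In these 5 pairs the H2A partner had the higher ratio in 4 and the lower in 1, the pair of which both genes are on the list. The counting intervals of H2AC25 and H2BC26 overlapped, as did those of H2AC13 and H2BC13, and H2BC21 is also on the list. H2AC1 and H2BC1, 250 bases apart, were below the count minimum and are left out.

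The 250 bases before the start are shown for the member with the highest ratio, that with the lowest, and a member of the HIST3 pair, from RefSeq on GRCh38.p14, while the build named for the deposited files is hg19. Each of these genes lies on the minus strand of its chromosome, and its window is written 5′ to 3′ on the gene's own strand. Capitals mark 3 motifs on either strand: the TATA box letters TATAAA, the letters CCAAT known from CCAAT boxes, and the octamer ATTTGCAT. The H3C13 window is chr1:149813694-149813943, that of H2BC12 chr6:27146859-27147108 and that of H2AC25 chr1:228457874-228458123.
H3C13: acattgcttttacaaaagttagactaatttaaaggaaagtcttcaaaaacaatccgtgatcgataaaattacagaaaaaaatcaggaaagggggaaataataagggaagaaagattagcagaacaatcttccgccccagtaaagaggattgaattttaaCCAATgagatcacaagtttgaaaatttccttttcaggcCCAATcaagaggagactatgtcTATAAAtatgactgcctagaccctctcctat
H2BC12: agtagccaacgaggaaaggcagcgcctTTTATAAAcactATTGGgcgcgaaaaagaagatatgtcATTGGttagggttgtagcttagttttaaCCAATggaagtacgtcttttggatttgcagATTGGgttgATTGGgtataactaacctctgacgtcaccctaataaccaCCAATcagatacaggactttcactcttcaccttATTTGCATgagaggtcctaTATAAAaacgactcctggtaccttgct
H2AC25: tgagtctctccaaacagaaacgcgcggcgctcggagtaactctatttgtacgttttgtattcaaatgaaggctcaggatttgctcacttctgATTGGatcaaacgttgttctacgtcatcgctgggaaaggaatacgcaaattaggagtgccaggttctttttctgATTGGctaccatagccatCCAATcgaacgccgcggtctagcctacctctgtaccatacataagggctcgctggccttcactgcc
RefSeq held a promoter for 30 of the 32 members. On either strand, TATAAA was found in 21 of the 30 (70.0%), against 11.1% of 27305 promoters of the same length, and CCAAT in 28 (93.3%) against 33.0%. The octamer ATTTGCAT, known as an element of H2B promoters, was found in 13 (43.3%) against 1.66%, in 6 of 10 H2B, 6 of 9 H2A and 1 of 4 H3 promoters. The windows of neighbouring members overlap, so these are 8 distinct octamers, 5 of them counted in 2 members each. In 4 of the 6 H2A promoters the octamer is the one also found in the window of the H2B partner, and H2AC7 and H3C4 have the same window. The shares for the other motifs count overlapping windows in the same way. H3C13, with the highest ratio, and H2BC12, with the lowest, both had TATAAA and CCAAT. A match describes letters and not a bound factor.

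Histone genes outside the clustered set were mixed. Of 18 such genes listed, 15 were matched and measured, with a median log2 ratio of -0.10. Past 2-fold, 1 was higher and 1 lower, beside 6.00% and 8.95% of all genes. H4C16, an H4 gene that lies alone on chromosome 12 and encodes the same protein as the clustered H4 genes, had 2187 against 1022 counts and a ratio of 2.15 (interval 1.999 to 2.322). H1-10, a linker histone made throughout the cell cycle, had 434 against 936 counts and a ratio of 0.467 (interval 0.416 to 0.524).
The other 13 genes of the list were within 2-fold. MACROH2A2, a macroH2A variant gene, had a ratio of 0.513. H2AX, which is phosphorylated at DNA breaks, had a ratio of 1.41, H2AZ2 one of 1.37 and H2AZ1 one of 1.23. The H3 replacement genes H3-3A and H3-3B had ratios of 0.881 and 1.10.

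Genes that make and degrade histone mRNA showed no common direction, with 12 of 20 above 1, beside 51.2% of all genes, and a median log2 ratio of 0.12. At 2-fold, 0 were higher and 0 lower, beside 6.00% and 8.95% of all genes. The 2 largest differences were in TUT7, which adds uridines to histone mRNA during decay, with 2093 and 3868 counts, a ratio of 0.545, and SYMPK, a scaffold of the cutting complex, with 174 and 288 counts, a ratio of 0.608. SLBP, the stem-loop binding protein, had 3738 against 2536 counts and a ratio of 1.48 (interval 1.41 to 1.56), and ERI1, the exonuclease that trims the stem-loop, one of 1.43. The cutting complex went both ways, with CPSF3, the endonuclease, at 0.663 and CPSF2 at 1.48. NPAT, the activator of the clustered genes, had a ratio of 1.19 and LSM11, of the U7 particle, one of 1.04.

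Chaperones that carry new histones to DNA were mostly slightly higher, with 19 of 22 above 1, beside 51.2% of all genes, and a median log2 ratio of 0.36. None was past 2-fold, beside 6.00% of all genes higher and 8.95% lower. UBN1, of the complex that deposits replacement H3, had a ratio of 1.65 with 248 and 151 counts, and TONSL, which binds new H4, one of 1.56. The subunits of the replication-linked chaperone CAF-1, CHAF1A, CHAF1B and RBBP4, were at 1.501, 1.46 and 1.35. The S phase list, which also holds cyclin-dependent kinase inhibitors, had a median of 0.37, beside 0.37 for the clustered genes outside the poly(A) list. Of its 24 genes, 18 had ratios above 1 and 6 below, while 51.2% of all genes were above 1. In the S phase list 1 gene was past 2-fold, beside 6.00% of all genes higher and 8.95% lower. It was the cyclin-dependent kinase inhibitor CDKN1A, with 852 and 420 counts and a ratio of 2.04. Cyclin E genes differed, with CCNE1 at 0.885 and CCNE2 at 1.48, and CDK2 was at 0.641. The part of cell cycle distribution in the histone ratios was not tested.

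**Figure D4:**
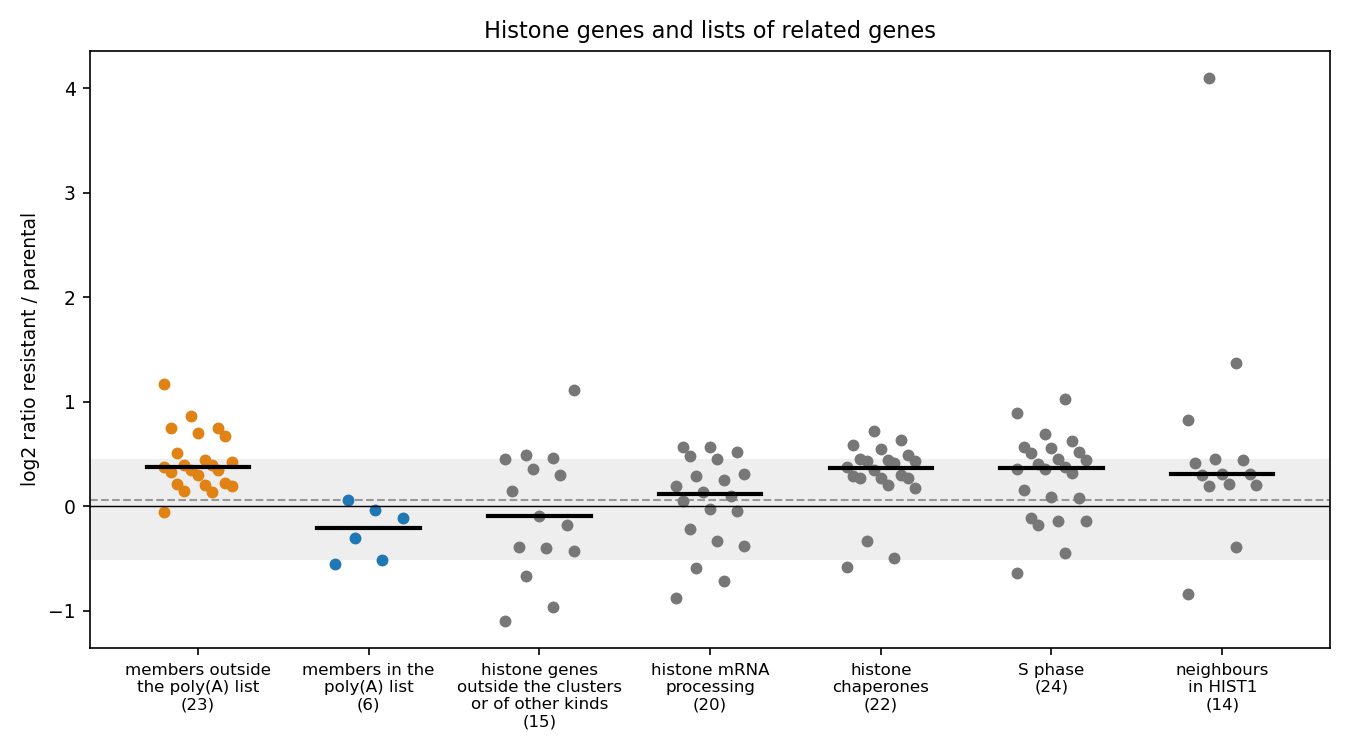
Log2 ratio of resistant over parental (y axis) for single genes at 50 counts or more in each gene list (x axis, number of genes in brackets), with black bars at the list medians, a grey band over the middle 50% of all genes from -0.50 to 0.44 and a dashed line at their median of 0.06. Clustered histone genes outside the poly(A) list, chaperones and S phase genes have medians of 0.37, 0.36 and 0.37, while the 6 genes of the poly(A) list have one of -0.21.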

How the data were processed

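The deposited table gives counts per gene as whole numbers without normalization, and FPKM values computed by the authors, per the file headers. The submitters' processing notes name RSEM 1.2.3 and hg19, with no role. The sources used here do not give the annotation, the use of strand in counting or how reads of identical copies were shared. Symbols came from a gene name table and GENCODE release 29 (GRCh38). Identifiers left without a name numbered 2126, with 7.03% of resistant and 8.90% of parental counts. Counts were scaled by TMM factors (edgeR 4.0.16, R 4.3.3). Log2 values, and calls at 2-fold, added 1 prior count, and members and background were read at 50 counts in the higher library. Printed ratios and their intervals have no prior. Alternatives covered scaling (median of ratios with DESeq2 1.42.0, upper quartile, totals), FPKM, minimum, prior, size, near-identical copies and means. Python 3.11.15 was used, and the calculation was tested on simulated data.

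The members and lists were chosen with earlier results of these data known. The rule for genes given in full took, per histone type, the 3 with the most counts and those past 2-fold, all HIST2 and HIST3 members, and per list up to 4 past 2-fold, or the 2 largest differences where none passed. Other members were open to naming. Other listed genes within 2-fold, such as SLBP, ERI1, NPAT, CPSF2, CPSF3, MACROH2A2 and HFE, were chosen after their values were seen, as were the counts by interval and the comparison with genes at 1000 counts. A gene of 1 list is not reported here.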

Additional observations from a re-analysis of the deposited data

How the results depend on the processing

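The direction of the members' median and sum held under every alternative run. Their median log2 ratio of 0.33 became 0.40 under upper quartile scaling, 0.26 with the median of genes at the count minimum set to equal levels, and 0.20 over the 19 members left without those that share a protein with another member. That set holds no H3 or H4 gene, and so no H3C13, and 0 were then 2-fold higher. At a minimum of 10 counts, or none, 2 were higher (H2BC1 added) and, with none, 1 was lower (H2AC1), while at 4-fold 0 were higher. The summed ratio of 1.098 became 1.09 with median of ratios scaling, 1.15 with the upper quartile, 1.05 with the median of genes at the count minimum, 1.18 with FPKM, 1.14 without H1-2 and 1.018 without members whose protein another gene of the clusters shares. The members left in the sum of 1.018 also include no H3 or H4 gene. Between scalings, 4 to 6 of the 6 listed genes were below 1, and 22 or 23 of the others above 1. Signs changed in 4 of 232 single values: H1-4 to 0.0117 and H2BC4 to 0.0303 under the upper quartile, H2BC4 to 0.00987 with FPKM, and H2BC21 to -0.00646 with the median of genes at the count minimum. A further 54 of the 232 moved beyond the gene's counting interval without a change of sign. The 232 include values with other prior counts, which barely move genes with this many counts. The median of all genes shifted by at most 0.07 between scalings. Scaling by that median, the last summed ratio, and the counts of the 2 sets under other scalings, were chosen after seeing the data. No paired analysis was possible because each group has 1 library. Counting error left the direction unsettled for H2BC4 among the 29 members at the count minimum, and for H1-1, H2AC1 and H2BC1 below it.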
